A study of Mus musculus with 18 samples.

Results

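The comparison described here set the spleens of mice injected with LPPC/mp against the spleens of naive mice. LPPC is a cationic lipo-PEG-PEI particle that adsorbs proteins on its surface, and mp stands for membrane proteins extracted from dendritic cells, the cells that present antigen to T cells. The members were chosen by label: 3 libraries of the treatment LPPC/mp (LM 1, LM 2 and LM 3) and 3 of the treatment Naive (N 1, N 2 and N 3), which made 6 of the 18 RNA-seq libraries of the series. The other 12 came from mice whose particles also carried an anti-CD28 or an anti-CTLA4 antibody.

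All 6 libraries were labelled as splenocytes of female C57BL/6J mice aged 4 to 6 weeks, whereas the methods of the study give older mice and name BALB/c beside C57BL/6. According to the study's methods, the LM mice received the complex into a vein and were later boosted with the same complex, and the N mice received no complex. By treatment, LM mice differed from N mice by particle and membrane proteins together, so the share of either component was not tested. No source states that the libraries of a group came from separate mice, so each p-value measures the spread between libraries, which may be technical. The treatment and extraction protocol texts of the labels describe B16F10 melanoma tumours, and the methods describe splenocytes.

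The spleen filters blood in its red pulp, where macrophages remove worn red cells and recover their iron, and hosts B-cell follicles and T-cell zones in its white pulp. Stromal cells of the white pulp make the chemokines that place lymphocytes, and the spleen of a mouse can also make blood cells, including granulocytes, on demand. Macrophages that sense microbial or particulate material switch on acute-phase proteins, cytokines, chemokines and enzymes such as prostaglandin and itaconate synthases, together with inhibitors such as interleukin 10 and the interleukin 1 receptor antagonist.

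Transcripts of the Y chromosome separated the libraries in a way the labels did not. Eif2s3y, a Y-linked translation factor gene, was listed at 0, 0 and 43.0 FPKM (fragments mapped to a gene, scaled by its length and by the size of the library) in N 1, N 2 and N 3, and at 34.1, 31.0 and 36.1 FPKM in LM 1, LM 2 and LM 3. Ddx3y, a Y-linked RNA helicase gene, was likewise listed at 0, 0 and 14.5 FPKM in the N libraries and at 12.6, 12.9 and 12.1 FPKM in the LM libraries. Xist, which coats and silences the inactive X, was at 55.4, 48.1 and 0.286 FPKM in the N libraries and at 5.29, 6.69 and 4.98 FPKM in the LM libraries. The library labelled N 3 and all LM libraries therefore held Y-linked transcripts against their label of female. N 1 and N 2 held none of Eif2s3y and Ddx3y. Between LM and N 1 and N 2, treatment thus cannot be told apart from the sex or source of the material.

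Cell type markers set the same library apart. The 26 T-cell genes summed to 1605, 1002 and 18.6 FPKM in N 1, N 2 and N 3, and to 219, 291 and 220 FPKM in LM 1, LM 2 and LM 3. The 20 general macrophage and monocyte genes summed to 656, 589 and 5491 FPKM in the N libraries and to 9815, 9175 and 9621 FPKM in the LM libraries. Spp1 made up most of the LM sum, and without it, a choice made after the values were seen, the other 19 genes summed to 655.1, 588.6 and 4547.8 FPKM in N and to 3172.4, 2996.6 and 3159.9 FPKM in LM, so that N 3 was then the highest. N 3 thus carried almost none of the T-cell markers that define a spleen, and the LM libraries carried fewer of them than N 1 and N 2. Fewer cells of a type and less RNA per cell cannot be told apart in bulk RNA. Of 10 melanocyte and melanoma genes, 4 (Tyr, Dct, Slc45a2 and Gpr143) were listed at 0 in all 6 libraries. The list summed to 3.53, 1.39 and 20.5 FPKM in N and to 15.3, 12.2 and 13.2 FPKM in LM, most of it in N 3 and LM from Mitf, a factor that macrophages also use, at 20.1 FPKM in N 3 and 11.7 to 14.7 FPKM in LM. Pmel reached 1.97 FPKM and Trpm1 1.29 FPKM in N 1.

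The libraries held between 5.65 and 7.48 aligned gigabases, and hemoglobin genes took 0.671%, 18.4% and 0.031% of the FPKM in N 1, N 2 and N 3 against 1.27% to 1.85% in LM. The LM libraries were close to each other, with a Pearson correlation of log2 FPKM of 0.992 to 0.994 over 11582 genes. Their correlation with N 3 was 0.900 to 0.915, and with N 1 and N 2 it was 0.725 to 0.784, while N 3 stood at 0.636 and 0.660 against N 1 and N 2. The median standard deviation per gene was 0.0808 on the log2 scale in LM and 0.51 in N, and it was 0.185 between N 1 and N 2 alone. Levels below are therefore given mostly by library, and the counts of calls are also given without N 3.

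**Figure D1:**
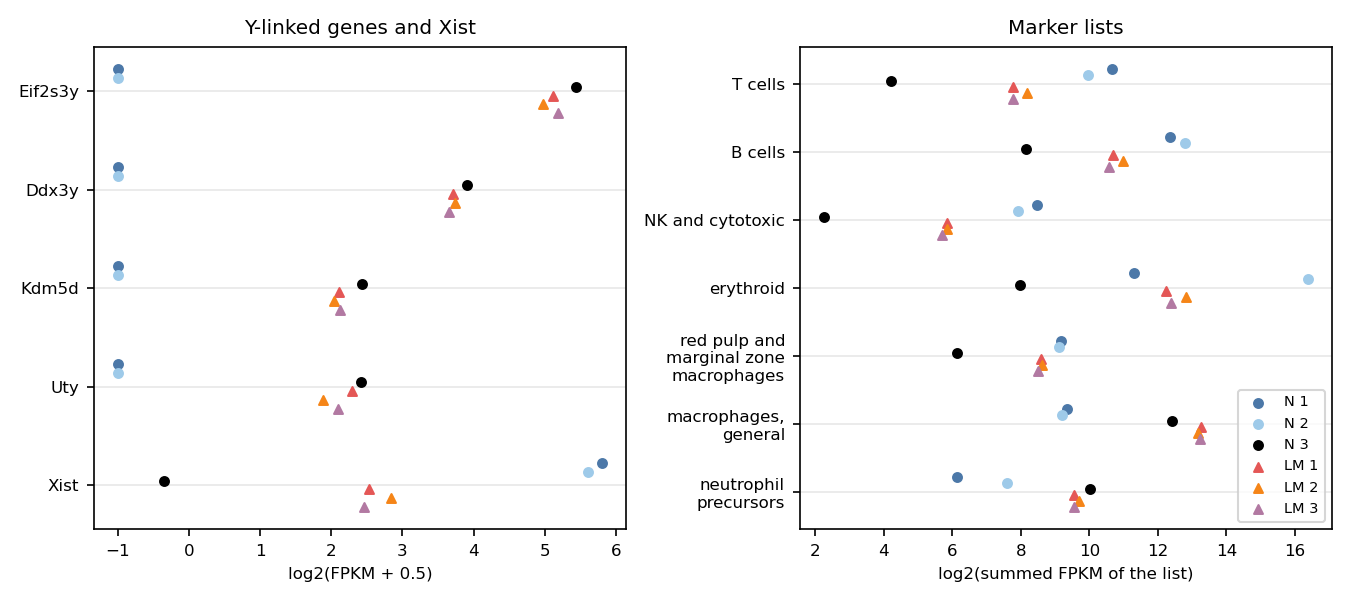
Levels of the Y-linked genes and Xist on the log2(FPKM + 0.5) scale (left) and summed FPKM of marker lists on a log2 axis (right), with circles for the 3 N and triangles for the 3 LM libraries. N 1 and N 2 are at the floor for all Y-linked genes, N 3 lies at the bottom of the T, B and NK lists, and the LM libraries sit between N 3 and the other N libraries for those lists.

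The test covered 11582 protein-coding genes that averaged 0.5 FPKM or more in these 6 libraries. Of these, 54 passed an adjusted p of 0.05 (0.466%), of which 48 were higher in LM than in N (0.414% of the genes tested) and 6 were lower (0.0518%), by limma on log2(FPKM + 0.5). Fold changes below are on that scale, which understates the change of low genes. A further reading used no test: all 3 LM libraries lay above all 3 N libraries for 1529 genes (13.2%) and below them for 2349 genes (20.3%). For 2170 genes (18.7%) all LM libraries lay above N 3 and below both N 1 and N 2. For 2113 genes (18.2%) they lay below N 3 and above both N 1 and N 2. These shares are the background for the counts of list members below. The median gene differed between LM and the mean of N 1 and N 2 by 0.706 in size on the log2 scale, and between LM and N 3 by 0.363.

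The calls depended on which libraries were kept. Without N 3, all 54 passed again among 3374 higher and 4209 lower genes (29.1% and 36.3%). Against N 3 alone, where the lone library was assumed to vary like LM, all 54 passed among 2696 higher and 3440 lower genes (23.3% and 29.7%). A fit of all 18 libraries, which shares the spread of the other treatments, also called all 54, among 1065 higher and 1817 lower genes (9.2% and 15.7%). Without N 1, 13 of the 54 passed, and without N 2, 22 of the 54 did. With values rescaled to the same sum in each library (the TPM scale), 28 of the 48 rises and 1 of the 6 falls passed. Leaving out any LM library left 0 genes past the threshold in limma, with 1227 to 1304 at an unadjusted p under 0.05, against 2613 in the fit of all 6. The block on replicate numbers also left 0, with 1838 at an unadjusted p under 0.05.

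**Figure D2:**
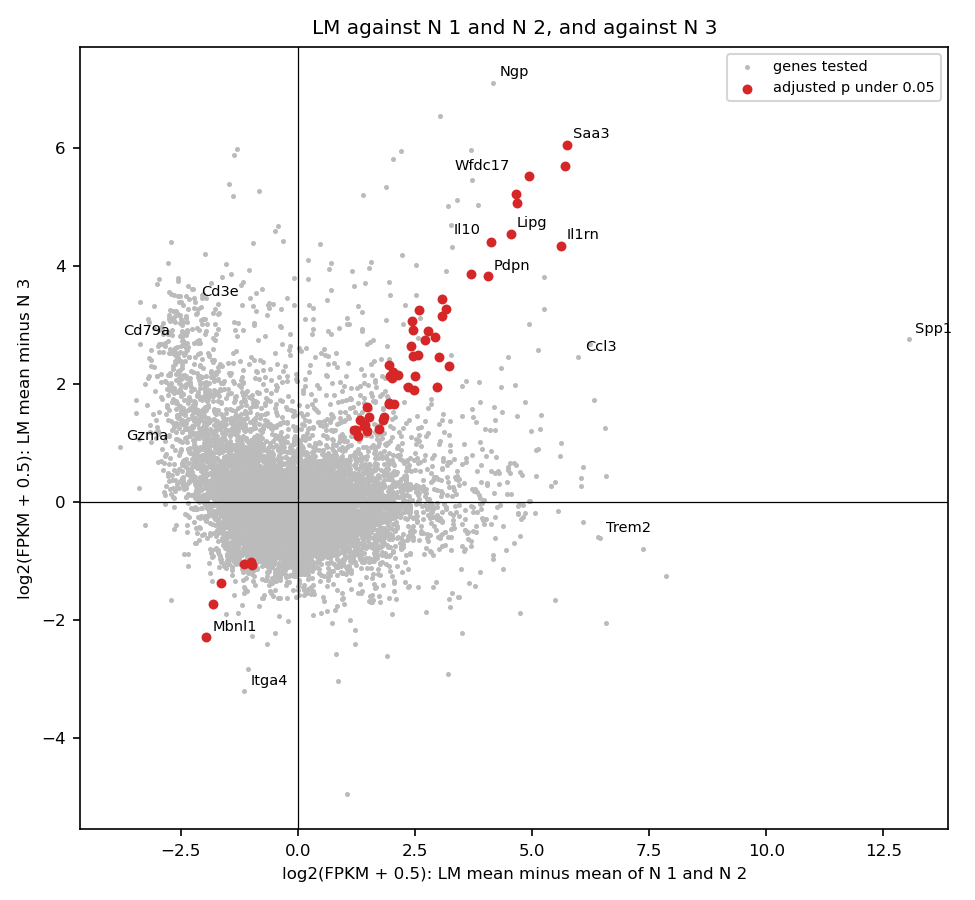
Each of the 11582 genes by its LM mean minus the mean of N 1 and N 2 (horizontal) and its LM mean minus N 3 (vertical), both differences of log2(FPKM + 0.5), with the 54 genes past an adjusted p of 0.05 in red. The red genes lie at the upper right and lower left, lymphocyte genes such as Cd79a and Cd3e in the upper left, and Trem2 in the lower right.

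Secreted proteins of the acute phase and inhibitors of inflammation led the genes that rose. Saa3, the serum amyloid A made by macrophages and other cells outside the liver (chr7:46711998-46715676 in mm10), was at 0.759, 0.237 and 0.277 FPKM in N 1, N 2 and N 3 and at 54.3, 48.3 and 51.9 FPKM in LM 1, LM 2 and LM 3. No library of either group came near the other group, and Saa3 rose by 5.86 ± 0.24 (log2, SE; adjusted p = 0.00151, limma). Il1rn, the receptor antagonist that blocks interleukin 1 (chr2:24336853-24351494), was at 3.20, 2.38 and 7.33 FPKM in N and 167, 149 and 163 FPKM in LM. It rose by 5.19 ± 0.38 (adjusted p = 0.0128, limma), with N 3 the highest of the naive libraries. Wfdc17, a small secreted protein of activated macrophages (chr11:83703991-83706268), was at 5.63, 4.96 and 3.36 FPKM in N and at 186, 169 and 178 FPKM in LM, and rose by 5.14 ± 0.20 (adjusted p = 0.00142, limma).

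Cytokine genes among the 48 were Il10, Csf3 and Il33. Il10, the cytokine that restrains macrophages and T cells (chr1:131019845-131024974), was at 0.501, 0.417 and 0.292 FPKM in N and at 16.5, 15.9 and 16.5 FPKM in LM, a rise of 4.22 ± 0.17 (adjusted p = 0.00142, limma). Csf3, the growth factor of neutrophils (G-CSF), was at 0.0600, 0.0208 and 0 FPKM in N and at 2.92, 3.08 and 3.70 FPKM in LM and rose by 2.82 ± 0.23 (adjusted p = 0.017, limma). Il33, an interleukin 1 family member stored in the nucleus of stromal cells, was at 0.0214, 0.0254 and 0.0095 FPKM in N and at 3.34, 2.48 and 3.04 FPKM in LM, a rise of 2.73 ± 0.23 (adjusted p = 0.0187, limma). These 3 genes were near 0 in every naive library and present in every LM library.

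Cp, the copper-carrying ferroxidase ceruloplasmin, rose by 2.39 ± 0.20 (adjusted p = 0.0187, limma), from 0.398, 0.524 and 0.747 FPKM to 4.88, 4.98 and 5.08 FPKM. Of the 12 tested genes of acute-phase and antimicrobial secreted proteins, 3 rose (Saa3, Wfdc17 and Cp), against 0.414% of all genes tested. For 10 of the 12, all LM libraries lay above all N libraries, against 13.2% of all genes. Among the 10, Lcn2 and Ltf are also on the neutrophil lists. The median log2 fold change of the list was 2.17, against -0.12 over all genes. Saa1 and Saa2, the liver forms of serum amyloid A, were at 0 in all N libraries, and Saa2 was at 0 in LM too.

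Lipg, the endothelial lipase that also marks activated macrophages, was at 0.0218, 0.0666 and 0.0401 FPKM in N and at 12.6, 11.4 and 12.6 FPKM in LM, and rose by 4.55 ± 0.17 (adjusted p = 0.00142, limma). Urah, which encodes an enzyme of uric acid breakdown (chr7:140835018-140837971), was listed at 0 in N 1, N 2 and N 3 and at 24.8, 25.4 and 26.7 FPKM in LM (adjusted p = 0.000523, limma), so no fold is given. Across the other treatments it was at most 0.0175 FPKM in the 6 anti-CTLA4 libraries and between 23 and 26.7 FPKM in the 6 anti-CD28 libraries. An exact 0 in files without counts can be an estimate that failed.

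The letters upstream of the start are shown for 4 of the genes with the largest rises, because these genes moved together and the motifs of factors that act in inflammation can be looked for there. Each run holds the 250 bases before the RefSeq start in GRCm38.p6 on the strand of the gene, with motif matches in capitals, and the windows of Wfdc17 and Pdpn, which held no match, are not shown. The motifs searched on both strands were GGANTTTCC (NF-kB), TGACTCA (AP-1), TGACGTCA (CRE), TTGCNNAA (C/EBP) and GAAANNGAA (ISRE).
Saa3 (chr7:46715677-46715926, minus strand), with an ISRE and a C/EBP match: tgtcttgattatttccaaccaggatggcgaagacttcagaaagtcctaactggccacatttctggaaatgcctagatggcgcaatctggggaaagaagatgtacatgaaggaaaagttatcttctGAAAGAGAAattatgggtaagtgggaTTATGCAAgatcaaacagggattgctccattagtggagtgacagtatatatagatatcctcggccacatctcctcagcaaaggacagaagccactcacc
Urah (chr7:140834888-140835137, plus strand), with no match: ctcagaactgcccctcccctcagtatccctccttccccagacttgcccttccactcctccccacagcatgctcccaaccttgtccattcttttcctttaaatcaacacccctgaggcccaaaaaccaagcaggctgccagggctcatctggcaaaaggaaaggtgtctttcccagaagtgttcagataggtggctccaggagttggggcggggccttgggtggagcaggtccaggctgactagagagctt
Il1rn (chr2:24336610-24336859, plus strand), with an AP-1 match: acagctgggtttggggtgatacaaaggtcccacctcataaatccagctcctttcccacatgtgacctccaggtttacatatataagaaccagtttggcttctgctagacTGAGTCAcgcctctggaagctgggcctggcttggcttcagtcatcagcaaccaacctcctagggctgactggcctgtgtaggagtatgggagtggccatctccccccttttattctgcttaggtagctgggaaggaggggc
Ccl21a (chr4:42773992-42774241, minus strand), with a C/EBP match: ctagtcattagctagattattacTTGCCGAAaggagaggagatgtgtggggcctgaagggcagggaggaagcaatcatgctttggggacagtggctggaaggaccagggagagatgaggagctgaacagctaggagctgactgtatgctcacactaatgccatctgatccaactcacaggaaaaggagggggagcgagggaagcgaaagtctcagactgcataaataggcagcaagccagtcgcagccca

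Of the 48 genes that rose, 36 had such a window in RefSeq. The C/EBP letters stood in 4 of the 36 windows (Saa3, Ccl21a and its near-copies Gm13304 and Gm10591) and in 9.56% of all 32851 windows, and the ISRE letters stood in 4 of 36 (Saa3, Ccl19, Sqor and Tnc) and in 7.13%. AP-1 letters were found in 3 of the 36 (Il1rn, Glrx and Ddit3) and in 4.46% of all windows, and CRE letters in 1 (Zfand2a) and in 1.55%. The NF-kB letters were in 0 of the 36 windows and in 1.07% of all, which says only that these letters are not in these windows.

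**Figure D3:**
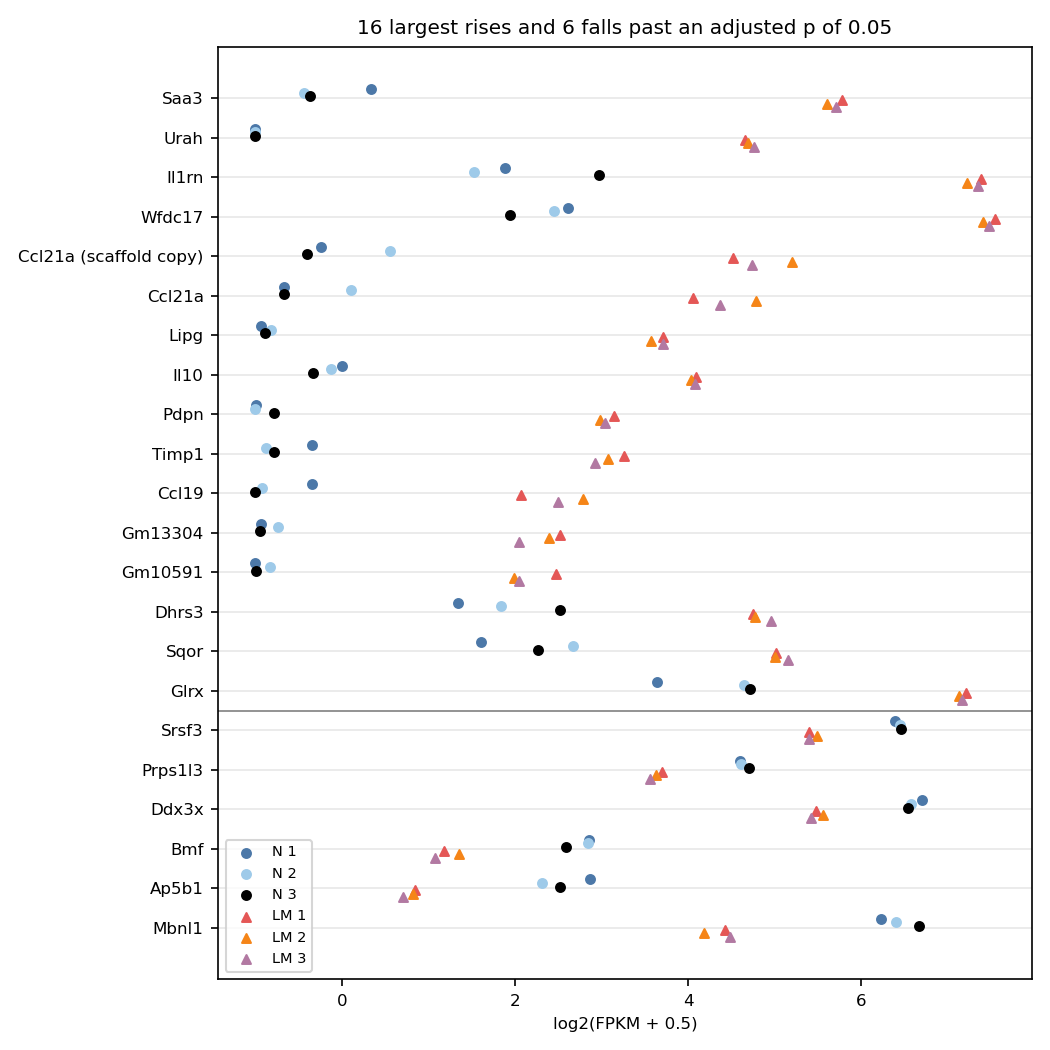
Levels on the log2(FPKM + 0.5) scale of the 16 genes with the largest rise and the 6 genes that fell past an adjusted p of 0.05, for the 3 N (circles) and 3 LM (triangles) libraries. The groups do not overlap for any of the 22 genes, and Urah sits at the floor in all 3 N libraries.

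Stromal genes and the chemokines of the T-cell zone rose as well. Ccl21a, which draws T cells and dendritic cells through the receptor Ccr7 (chr4:42772860-42773993), was at 0.130, 0.574 and 0.130 FPKM in N and at 16.2, 27.2 and 20.1 FPKM in LM, a rise of 4.82 ± 0.31 (adjusted p = 0.0109, limma). LM 2 held the highest value. A second Ccl21a on the unplaced scaffold JH584294.1 and the related Gm13304 and Gm10591 on chromosome 4 are also among the 48, and these near-identical copies can share reads, so they are not separate findings. Ccl19, the other ligand of Ccr7, was at 0.287, 0.0276 and 0 FPKM in N and at 3.69, 6.40 and 5.13 FPKM in LM, a rise of 3.21 ± 0.31 (adjusted p = 0.0287, limma).

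Pdpn, the podoplanin of fibroblastic reticular cells and of some macrophages, was at 0.0020, 0 and 0.0833 FPKM in N and at 8.37, 7.42 and 7.72 FPKM in LM, and rose by 3.98 ± 0.19 (adjusted p = 0.00281, limma). Timp1, an inhibitor of matrix metalloproteinases, rose by 3.75 ± 0.23 (adjusted p = 0.00981, limma), from 0.286, 0.0473 and 0.0810 FPKM to 9.07, 7.94 and 7.09 FPKM. The matrix gene Col1a2, a collagen I chain, was at 0.234, 0.194 and 0.0503 FPKM in N and at 2.17, 2.19 and 2.47 FPKM in LM (2.08 ± 0.24, adjusted p = 0.0442, limma). Tnc, the matrix protein tenascin C, was at 0, 0.006 and 0.255 FPKM in N and at 2.5, 2.2 and 2.22 FPKM in LM (2.28 ± 0.28, adjusted p = 0.0491, limma). Both were low in every naive library. Timp1 overlaps Syn1 on the opposite strand, and Tnc overlaps 8030451A03Rik on the opposite strand, and reads of such pairs cannot be told apart where strand was not kept.

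Of the 12 tested genes of splenic stroma and endothelium, 4 rose and 8 had all LM libraries above all N libraries. Among all genes tested, 0.414% rose and 13.2% lay above. The other 4 (Pecam1, Cdh5, Stab2 and Kdr) are genes of blood vessels and sinuses and lay above N 3 and below N 1 and N 2. Pecam1, the adhesion molecule of endothelium, was at 32.5, 23.9 and 0.547 FPKM in N and at 3.63, 5.97 and 4.08 FPKM in LM. Cxcl13, the B-cell chemokine of follicles, was at 1.12, 2.70 and 0.144 FPKM in N and at 16.8, 28.0 and 18.2 FPKM in LM without passing the test (adjusted p = 0.0721, limma).

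Several enzymes were also among the 48, picked here after their values were seen. Sqor, the mitochondrial sulfide quinone oxidoreductase listed under its older symbol Sqrdl, was at 2.54, 5.88 and 4.31 FPKM in N and at 32.0, 31.5 and 35.3 FPKM in LM, a rise of 2.88 ± 0.29 (adjusted p = 0.0313, limma). Glrx, a glutaredoxin that removes glutathione from proteins, was at 11.95, 24.6 and 25.8 FPKM in N and at 148, 139 and 143 FPKM in LM and rose by 2.83 ± 0.31 (adjusted p = 0.041, limma). Dhrs3, which reduces retinal, rose by 2.93 ± 0.31 (adjusted p = 0.0391, limma), from 2.04, 3.07 and 5.22 FPKM to 26.5, 26.8 and 30.6 FPKM. Every LM library lay above every naive library for all 3 genes.

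Por, the reductase that feeds cytochrome P450 enzymes, was at 15.7, 17.8 and 22.2 FPKM in N and at 72.2, 67.7 and 72.9 FPKM in LM and rose by 1.92 ± 0.16. Prdx5, a peroxiredoxin, was at 37.99, 32.7 and 43.01 FPKM in N and at 97.9, 97.3 and 103 FPKM in LM and rose by 1.39 ± 0.15. Qsox1, a sulfhydryl oxidase, was at 8.46, 7.96 and 11.04 FPKM in N and at 30.8, 29.1 and 33.05 FPKM in LM and rose by 1.72 ± 0.17 on the log2 scale. Genes of lysosomes and of transport into them also passed. Slc11a1, the phagosomal metal exporter Nramp1, was at 13.7, 10.8 and 11.1 FPKM in N and at 36.7, 35.9 and 32.7 FPKM in LM, a rise of 1.53 ± 0.15 (adjusted p = 0.0287, limma). Slc15a3, a peptide and histidine transporter of endolysosomes, was at 7.18, 5.76 and 3.97 FPKM in N and between 37.17 and 37.24 FPKM in LM and rose by 2.65 ± 0.22 (adjusted p = 0.0187, limma). The groups did not overlap for either transporter. Galns, a lysosomal sulfatase, was at 7.17, 6.45 and 6.76 FPKM in N and at 17.1, 15.4 and 16.7 FPKM in LM and rose by 1.21 ± 0.13. Plbd2, a lysosomal phospholipase B-like protein, was at 8.66, 8.16 and 9.19 FPKM in N and at 23.7, 21.8 and 24.5 FPKM in LM and rose by 1.38 ± 0.13. Galns shares its locus with Gm20388 on the opposite strand.

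Stress-response genes among the 48 were Ddit3, Gadd45b and Zfand2a. Ddit3, the transcription factor CHOP of the integrated stress response, was at 10.4, 10.3 and 7.41 FPKM in N and at 58.5, 56.9 and 63.0 FPKM in LM and rose by 2.62 ± 0.17 (adjusted p = 0.0109, limma). Gadd45b, induced by stress and by NF-kB, was at 12.5, 10.3 and 10.1 FPKM in N and at 46.4, 42.5 and 50.3 FPKM in LM, a rise of 2.03 ± 0.15 (adjusted p = 0.0128, limma). The 3 naive libraries were close to each other for both genes, N 3 included. Zfand2a, an arsenite-inducible regulator of the proteasome, was at 4.4, 4.18 and 5.91 FPKM in N and at 15.7, 16.3 and 17.3 FPKM in LM and rose by 1.68 ± 0.17 (adjusted p = 0.0339, limma).

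Irf7, the interferon regulatory factor that amplifies type I interferon, was the single called member of the type I interferon list. It was at 22.3, 24.4 and 26.4 FPKM in N and at 59.5, 52.6 and 62.4 FPKM in LM, a rise of 1.24 ± 0.14 (adjusted p = 0.0412, limma). Of the 21 tested genes of that list, 4 lay above and 1 below all N libraries, with a median log2 fold change of -0.17. Over all genes tested, 13.2% lay above and 20.3% below, with a median of -0.12. The interferon-induced Ifit1 was at 4.73, 4.47 and 0.454 FPKM in N and at 0.853, 1.08 and 0.871 FPKM in LM, between N 3 and the other naive libraries.

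Remaining genes that rose included Trem3 and Lrrc25, receptors of myeloid cells, Stfa2, a cysteine protease inhibitor of granulocytes that has near-identical copies, the serine proteases Prss50, Prss46 and Klk9, the receptor-like phosphatase Ptprn, and Myo1e, a myosin of phagocytic cups. Myo1e was at 24.6, 24.5 and 29.9 FPKM in N and at 98.4, 91.4 and 98.1 FPKM in LM (1.85 ± 0.14, adjusted p = 0.0128, limma). Gm49368 overlaps 55809 bases of Itgam, the integrin alpha M of myeloid cells, on the same strand, and Gm20441 shares 1964 bases with Ddt, so the calls for Gm49368 and Gm20441 cannot be separated from Itgam and Ddt.

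The 6 genes that fell included the largest fall in Mbnl1. Mbnl1, a splicing regulator (chr3:60472830-60629750), was at 74.7, 84.2 and 101 FPKM in N and at 21.01, 17.7 and 21.9 FPKM in LM, and fell by 2.07 ± 0.17 on the log2 scale (adjusted p = 0.0186, limma). Srsf3, a splicing factor, was at 83.6, 86.8 and 87.2 FPKM in N and at 41.8, 44.5 and 41.7 FPKM in LM (-1.002 ± 0.11, adjusted p = 0.0429, limma). Ddx3x, the X-linked RNA helicase, was at 104, 94.7 and 92.8 FPKM in N and at 44.3, 46.7 and 42.4 FPKM in LM (-1.12 ± 0.12, adjusted p = 0.0407, limma).

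Bmf, a pro-apoptotic member of the Bcl-2 family, was at 6.73, 6.70 and 5.51 FPKM in N and at 1.77, 2.06 and 1.61 FPKM in LM (-1.56 ± 0.17, adjusted p = 0.0412, limma). Ap5b1, a subunit of an adaptor complex of late endosomes, was at 6.82, 4.49 and 5.22 FPKM in N and at 1.30, 1.27 and 1.13 FPKM in LM (-1.78 ± 0.21, adjusted p = 0.0442, limma). The sixth, Prps1l3, a phosphoribosyl pyrophosphate synthetase that overlaps Mipol1, was at 23.7, 23.97 and 25.5 FPKM in N and at 12.5, 11.9 and 11.3 FPKM in LM and fell by 1.01 ± 0.12 on the log2 scale.

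Several inflammatory genes lay above all naive libraries without passing the test. Ptgs2, the inducible prostaglandin synthase COX-2, was at 3.95, 0.856 and 6.11 FPKM in N and at 97.6, 88.3 and 93.5 FPKM in LM (log2 difference 4.78 ± 0.59, adjusted p = 0.0514, limma). Acod1, the enzyme that makes itaconate (listed as Irg1), was at 0.212, 0.528 and 2.86 FPKM in N and at 33.0, 31.5 and 32.1 FPKM in LM (adjusted p = 0.0551, limma). Nos2, the inducible nitric oxide synthase, was at 0.154, 0.0607 and 3.08 FPKM in N and at 20.8, 20.1 and 21.4 FPKM in LM (adjusted p = 0.0787, limma). For each of these genes N 3 was the highest naive library and still well below LM. Of the 17 tested genes of prostaglandin, nitric oxide, arginine and itaconate enzymes, 4 lay above all naive libraries, as did 13.2% of all genes. Arg1, the arginase of alternatively activated macrophages, was at most 0.556 FPKM in any library.

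Chemokine genes showed the same order. Of the 20 tested chemokine genes, 2 rose (Ccl21a and Ccl19) and 13 had all LM libraries above all N libraries. The median log2 fold change of the 20 was 2.14. Among all genes tested, 0.414% rose and 13.2% lay above all N libraries. Ccl3, which draws monocytes and other leukocytes, was at 11.1, 8.15 and 115 FPKM in N and at 668, 599 and 643 FPKM in LM. Ccl4, a chemokine related to Ccl3, was at 4.76, 4.56 and 19.0 FPKM in N and at 161, 146 and 167 FPKM in LM (adjusted p = 0.0551, limma). Cxcl2, which draws neutrophils, was at 2.33, 0.349 and 2.16 FPKM in N and at 13.2, 14.005 and 16.1 FPKM in LM. N 3 was the highest naive library for Ccl3 and Ccl4 but not for Cxcl2. Ccl5, a chemokine of T and NK cells, and Ccl6 lay between N 3 and the other naive libraries.

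Chemokine receptors mostly lay between the naive libraries. None of 18 tested receptors was called by limma or lay outside the naive range. Of the 18, 15 lay above N 3 and below N 1 and N 2, against 18.7% of all genes. Ccr7, the receptor for Ccl19 and Ccl21a, was at 79.2, 47.6 and 1.08 FPKM in N and at 21.8, 26.3 and 19.8 FPKM in LM. Cx3cr1, a receptor of monocytes and macrophages, was at 5.30, 3.73 and 61.4 FPKM in N and at 11.2, 11.2 and 11.0 FPKM in LM, and was thus highest in N 3.

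**Figure D4:**
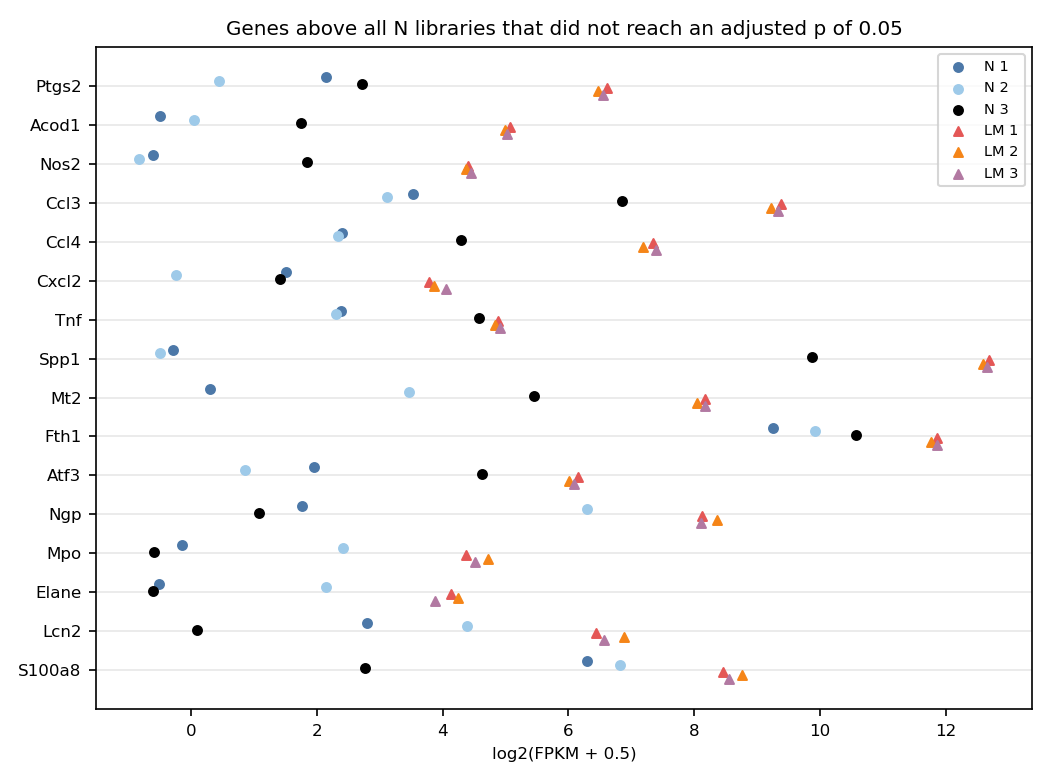
Levels on the log2(FPKM + 0.5) scale of 16 genes for which every LM library (triangles) lay above every N library (circles) but the adjusted p was 0.05 or more. For the upper genes from Ptgs2 to Atf3 N 3 or N 1 is the highest naive library, and for the neutrophil genes from Ngp to S100a8 it is N 2.

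Granule genes of neutrophil precursors, which are transcribed in the marrow and at sites of granulocyte formation, stood above the naive libraries. Ngp, the neutrophilic granule protein, was at 2.88, 78.3 and 1.62 FPKM in N and at 278.8, 329 and 275 FPKM in LM. Mpo, myeloperoxidase, was at 0.405, 4.84 and 0.164 FPKM in N and at 20.2, 25.9 and 22.4 FPKM in LM. Elane, neutrophil elastase, was at 0.200, 3.90 and 0.155 FPKM in N and at 17.1, 18.5 and 14.2 FPKM in LM. The highest naive library for each was N 2, which also had the highest share of hemoglobin.

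Of the 15 tested genes of this list, 10 had all LM libraries above all N libraries and 0 were called by limma, with a median log2 fold change of 3.42. In the fit of all 18 libraries 10 of the 15 were higher. Olfm4, Chil1 and Chil3 overlapped the naive libraries, and Serpinb1a lay above N 3 and below N 1 and N 2. Lyz1, a lysozyme, lay below N 3 and above N 1 and N 2. It was at 2.47, 1.80 and 1026 FPKM in N and at 251, 240.5 and 252 FPKM in LM. Among 16 genes of mature neutrophils 9 lay above all naive libraries and 5 between N 3 and the others. Of all genes tested, 13.2% lay above and 18.7% lay above N 3 and below N 1 and N 2. S100a8, a subunit of calprotectin, was at 78.2, 112 and 6.32 FPKM in N and at 350, 434 and 375 FPKM in LM, while Cxcr2, the receptor for Cxcl2 on circulating neutrophils, was at 8.90, 7.86 and 0.221 FPKM in N and at 2.26, 2.81 and 2.43 FPKM in LM.

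General macrophage genes were high in N 3 and in LM and low in N 1 and N 2. Spp1, osteopontin, was at 0.316, 0.210 and 943 FPKM in N and at 6642, 6179 and 6462 FPKM in LM (log2 difference 9.62 ± 2.88, adjusted p = 0.149, limma). Msr1, a scavenger receptor, was at 1.14, 0.773 and 34.2 FPKM in N and at 111, 115 and 117 FPKM in LM. Trem2, a lipid-sensing receptor of tissue macrophages, was at 0.0199, 0.0458 and 70.8 FPKM in N and at 50.6, 41.2 and 47.3 FPKM in LM. Spp1 and Msr1 were thus higher in LM than in any naive library, and Trem2 was highest in N 3. Of the 20 genes of the list, 8 lay above all naive libraries and 8 below N 3 and above N 1 and N 2. Those positions held 13.2% and 18.2% of all genes tested. By limma, 0 of the 20 were called.

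Resident macrophages of the spleen had the reverse order. Of 16 tested genes of red pulp and marginal zone macrophages, 13 lay above N 3 and below N 1 and N 2. That position held 18.7% of all genes tested. The median log2 difference of the 16 was -2.09 from the mean of N 1 and N 2 and 2.71 from N 3. Slc40a1, the iron exporter ferroportin, was at 72.0, 73.6 and 1.11 FPKM in N and at 10.4, 11.4 and 9.05 FPKM in LM. C1qa, a chain of complement C1q, was at 67.3, 68.9 and 1.48 FPKM in N and at 16.1, 19.97 and 13.97 FPKM in LM. Hmox1 and Siglec1 were exceptions that lay above every naive library. Siglec1, a sialic acid receptor of marginal zone macrophages, was at 2.68, 1.98 and 1.503 FPKM in N and at 7.64, 7.19 and 7.43 FPKM in LM. Hmox1, the heme oxygenase that frees iron, was at 130, 138 and 61.3 FPKM in N and at 284, 266 and 269 FPKM in LM.

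Genes of iron storage and metal binding also lay above all naive libraries. Fth1, the ferritin heavy chain, was at 612, 973 and 1528 FPKM in N and at 3741, 3505 and 3732 FPKM in LM, and Mt2, a metallothionein, was at 0.736, 10.6 and 43.1 FPKM in N and at 288, 262 and 288 FPKM in LM. Neither passed the test (adjusted p = 0.118 for Mt2, limma). Of the 19 genes of metallothioneins, oxidative stress and iron, 1 rose (Slc11a1), 7 lay above and 1 (Cat, catalase) below all naive libraries. Over all genes tested, 13.2% lay above and 20.3% below. Among 17 lysosomal cathepsin and membrane protein genes 6 lay above all naive libraries, among them Ctsd, cathepsin D, at 112, 134 and 245 FPKM in N and 661, 616 and 646 FPKM in LM.

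Lymphocyte genes lay between the naive libraries in LM. All 23 tested T-cell genes and 18 of 19 B-cell genes were above N 3 and below both N 1 and N 2 in every LM library, against 18.7% of all genes tested, and 0 were called by limma. Cd3e, a chain of the T-cell receptor complex, was at 68.8, 59.1 and 0.843 FPKM in N and at 12.6, 15.6 and 13.0 FPKM in LM. Cd79a, a chain of the B-cell receptor complex, was at 518, 403 and 9.60 FPKM in N and at 82.0, 107 and 75.3 FPKM in LM. The summed T-cell genes were at 18.7% of the mean of N 1 and N 2 in LM, and the B-cell genes at 28.1%. Cd72, which myeloid cells also express, was the B-list member outside that order.

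NK and cytotoxic genes showed the same position in 14 of 15 tested members, against 18.7% of all genes tested. Gzma, granzyme A, was at 67.4, 66.0 and 2.03 FPKM in N and at 5.01, 4.97 and 3.28 FPKM in LM, and Prf1, perforin, at 15.6, 14.8 and 0.214 FPKM in N and 1.20, 1.39 and 1.23 FPKM in LM. MHC class II presentation had 15 of 16 tested genes in that position. H2-Ab1, a class II chain, was at 1151, 553 and 13.5 FPKM in N and at 123, 162 and 114 FPKM in LM. Of 15 interferon-inducible GTPases, 13 lay there and 2 (Irgm1 and Irgm2) lay below all naive libraries, against 20.3% of all genes below. The direction of such genes depended on the naive library, since the median T-cell gene differed by -2.39 from the mean of N 1 and N 2 and by 2.56 from N 3 on the log2 scale.

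**Figure D5:**
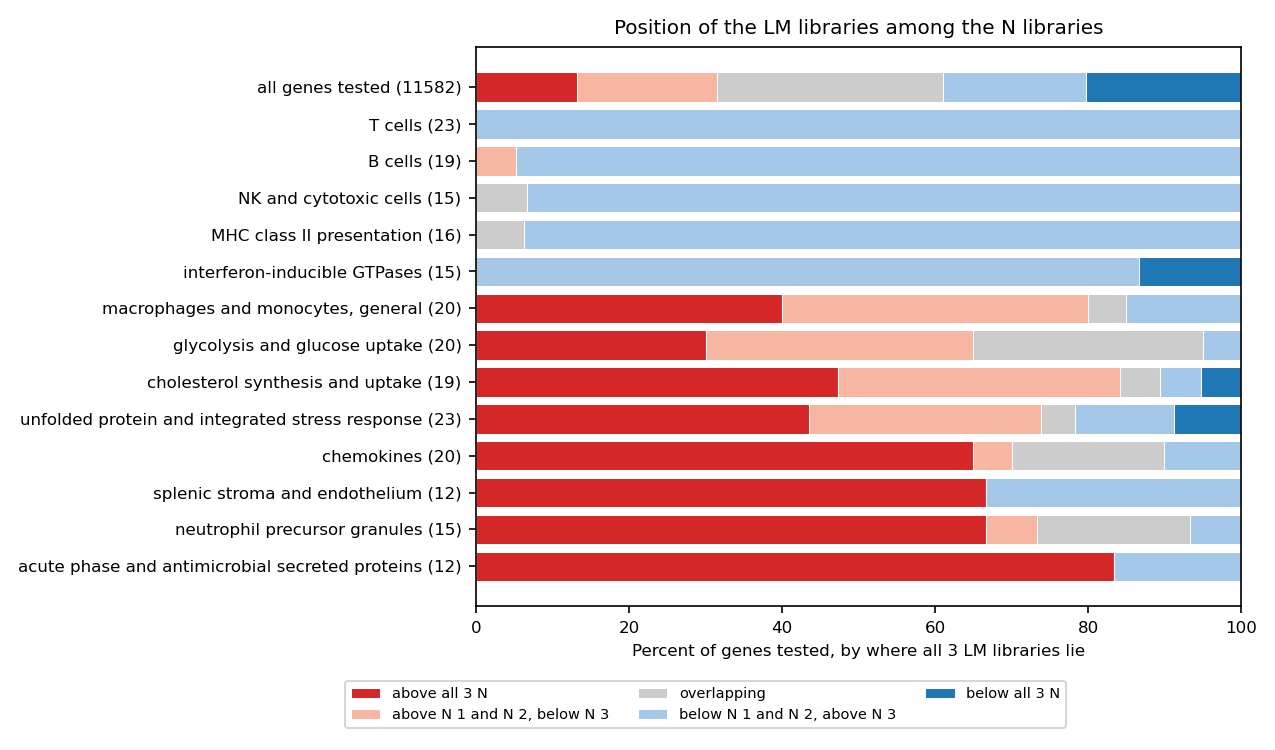
Share of tested genes (number in brackets) by where all 3 LM libraries lay relative to the naive libraries, for all genes and 13 gene lists. All T-cell genes fall in the class below N 1 and N 2 and above N 3, and 10 of 12 acute-phase genes fall in the class above all 3 N libraries.

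Within LM, LM 2 held the highest summed level of 12 of the 14 cell type lists. Its T-cell sum of 291 FPKM compared with 219 and 220 FPKM in LM 1 and LM 3, and its erythroid sum of 7185 FPKM with 4844 and 5322 FPKM. Erythroid genes overlapped between the groups for all 14 members, since N 2 was far above the rest. Slc4a1, the anion exchanger of red cells, was at 1.19, 573 and 0.541 FPKM in N and at 12.1, 15.9 and 12.4 FPKM in LM.

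Smaller cell lists varied in position. Of 16 dendritic cell genes, 11 lay between N 3 and the other naive libraries, 1 (Bst2) above all and 2 (Zbtb46 and Tcf4) below all. Of 8 tested basophil, mast cell and eosinophil genes, 2 lay above all naive libraries, 5 between N 3 and the others, and 1 overlapped. The 2 were Prss34 and Mcpt8, proteases of basophils, at most 1.69 FPKM in any naive library and between 4.21 and 5.60 FPKM in LM. Gata2, Kit and Il5ra were among those between, and Cpa3 overlapped. Of 10 tested megakaryocyte and platelet genes, 3 lay above all naive libraries: Pf4 and Ppbp, chemokines of platelets, and Gp1bb. Another 3 lay above N 3 and below N 1 and N 2, and 4 overlapped. Of 8 plasma cell genes, 4 lay between and Sdc1, the syndecan CD138 that macrophages can also carry, lay above. For comparison with these lists, 13.2% of all genes tested lay above all naive libraries and 20.3% below. Another 18.7% of all genes lay above N 3 and below N 1 and N 2, and 29.5% overlapped.

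Of the cytokines the study followed at the protein level, Il2, Il4 and Ifng were low in these files. Ifng was at 3.25, 3.27 and 0 FPKM in N and at 0.772, 0.978 and 0.734 FPKM in LM, between N 3 and the others. Il4 was at most 0.735 FPKM and Il2 at most 0.364 FPKM in any library, below the mean of 0.5 FPKM needed for the test. Tgfb1 was at 98.6, 76.9 and 39.6 FPKM in N and at 56.0, 58.7 and 54.6 FPKM in LM. Tnf was at 4.73, 4.41 and 23.5 FPKM in N and at 29.045, 28.1 and 29.5 FPKM in LM, above all naive libraries, and Il10, given above, was the member of this group that passed the test.

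Among other cytokine genes 6 of 17 tested lay above all naive libraries, including Ebi3 and Il27, the subunits of interleukin 27, and Tnfsf9, the ligand 4-1BBL. Tnfsf9 was at 0.895, 0.366 and 16.9 FPKM in N and at 21.03, 20.5 and 21.9 FPKM in LM. Il1b, in contrast with its antagonist Il1rn, was at 51.6, 34.9 and 2.49 FPKM in N and at 13.1, 13.0 and 9.88 FPKM in LM, between the naive libraries. Of the 14 tested interleukin 1 family and receptor genes, 2 rose (Il1rn and Il33), 4 lay above and 1 below all naive libraries. Over all genes tested, 13.2% lay above and 20.3% below. Il6 was at most 0.807 FPKM in LM and at most 0.108 FPKM in N.

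Costimulation receptors are the targets of the antibodies used elsewhere in the study. Cd28, which amplifies T-cell activation, was at 14.7, 14.05 and 1.34 FPKM in N and at 2.47, 3.33 and 3.07 FPKM in LM. Ctla4, which restrains it, was at 4.00, 4.48 and 0.294 FPKM in N and at 3.58, 3.60 and 3.14 FPKM in LM. Both lay between N 3 and the others, Cd28 at 20.6% and Ctla4 at 81.1% of the mean of N 1 and N 2. Cd274, the inhibitory ligand PD-L1, was at 18.04, 12.5 and 1.48 FPKM in N and at 19.1, 18.4 and 19.3 FPKM in LM, above all naive libraries by a small margin.

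Toll-like receptors and their adaptors included 7 of 23 tested genes below all naive libraries and 1 (Ticam1) above, with a median log2 fold change of -0.57, where 20.3% of all genes lay below and 13.2% above. Tlr7, a sensor of RNA, was at 17.6, 11.0 and 35.1 FPKM in N and at 6.53, 6.95 and 7.05 FPKM in LM. Myd88, the adaptor of most of these receptors, was at 21.9, 17.3 and 16.8 FPKM in N and at 13.7, 13.8 and 14.95 FPKM in LM. Of 18 NF-kB subunits and inhibitors, 4 lay above all naive libraries (Nfkbia, Nfkbiz, Tnip1 and Tnip3). Another 9 lay above N 3 and below N 1 and N 2, against 18.7% of all genes. They were the subunits Rela, Relb, Nfkb1 and Nfkb2 and the inhibitors or regulators Nfkbie, Nfkbib, Cyld, Zc3h12a and Birc3. Nfkbia was at 72.7, 54.8 and 36.9 FPKM in N and at 126, 122 and 121 FPKM in LM.

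Socs3, a feedback inhibitor of interleukin 6 and G-CSF signalling, was the one of 16 STAT and SOCS genes above all naive libraries, at 17.5, 12.2 and 2.13 FPKM in N and 44.1, 41.9 and 45.8 FPKM in LM. Of the other members, 10 lay above N 3 and below N 1 and N 2, and 4 lay below all naive libraries. Over all genes tested, 13.2% lay above, 20.3% below and 18.7% in that middle position. Of 25 immediate early genes and MAPK phosphatases, 1 rose (Gadd45b) and 7 lay above all naive libraries, among them Ier3 and Dusp4. In the stress-response list 10 of 23 lay above all naive libraries, Atf3 at 3.38, 1.31 and 24.2 FPKM in N and 70.7, 64.0 and 67.4 FPKM in LM, while Dnajc3 and Pdia4 lay below. Among 14 heat shock chaperones 4 lay above, of which Hspa1a and Hspa1b are near-identical copies.

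Of 20 glycolysis genes, 6 lay above all naive libraries and 7 below N 3 but above N 1 and N 2. Those positions held 13.2% and 18.2% of all genes tested. On the log2 scale the median glycolysis gene was 2.74 above the mean of N 1 and N 2. It differed from N 3 by -0.04. Pgk1, phosphoglycerate kinase, was at 51.0, 48.4 and 870 FPKM in N and at 1121, 1042 and 1140 FPKM in LM. Cholesterol synthesis and uptake had 9 of 19 genes above all naive libraries, with medians of 1.89 over N 1 and N 2 and 0.09 over N 3. Cell cycle genes were higher in N 3 than in LM, with a median of -0.52 against N 3 and 1.29 against N 1 and N 2, and 0 of 22 were called by limma. Cdkn1a, the cell cycle inhibitor p21, was at 1.79, 1.55 and 118 FPKM in N and at 146, 136 and 147 FPKM in LM.

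Adhesion and Fc receptor genes were mixed. Itgam was at 13.4, 10.0 and 24.1 FPKM in N and at 95.4, 90.1 and 93.7 FPKM in LM, and Itga5, a fibronectin receptor chain, at 1.46, 2.09 and 11.3 FPKM in N and 47.4, 42.6 and 45.5 FPKM in LM. Itga4, an integrin of lymphocytes and monocytes, was at 61.9, 55.2 and 247 FPKM in N and at 26.7, 25.6 and 26.1 FPKM in LM, below all naive libraries. Of 19 tested adhesion genes 6 lay above and 2 below, and of 12 tested Fc and complement receptor genes 4 lay above and 1 below. The shares over all genes tested were 13.2% above and 20.3% below. MHC class I presentation had 14 of 16 genes above N 3 and below N 1 and N 2, against 18.7% of all genes tested.

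Ribosomal protein genes differed little, with a median log2 fold change of -0.07 over 30 genes and 24 of them overlapping. Of the 13 protein-coding transcripts of the mitochondrial genome, 6 (mt-Nd1, mt-Nd2, mt-Nd4, mt-Nd4l, mt-Nd5 and mt-Cytb) lay below all naive libraries, mt-Nd1 at 2143, 2315 and 2497 FPKM in N and 1448, 1832 and 1405 FPKM in LM. Over all genes tested, 20.3% lay below all naive libraries and 29.5% overlapped. LM 2 was the nearest of the LM libraries to N for each of these 6 mitochondrial genes. mt-Co1 was at 6220, 6708 and 10165 FPKM in N and at 9904, 10513 and 9769 FPKM in LM.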

How the data were processed

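RNA of splenocytes was sequenced on a NovaSeq instrument. The authors deposited 1 table per library with FPKM per gene, and per the labels the build was mm10 and GATK 4.2 was among the tools. The aligner is not given in the sources used here, nor is the assembler. The deposited coverage signal (mean read depth) served, divided by FPKM, to obtain the aligned sequence per library. The deposited TPM column was treated as a score and not used, since assembled loci alone sum to 1000000 there. The tables hold no counts, so no counting intervals were made.

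Reference genes typed as protein-coding by GENCODE M21 that averaged 0.5 FPKM or more in the 6 libraries were compared as log2(FPKM + 0.5) with limma 3.58.1 in R 4.3.3 (empirical Bayes with trend), with Benjamini-Hochberg adjustment and a threshold of 0.05. An exact permutation test of 3 against 3 cannot go below 0.1 and was not used. Python 3.11.15 with pandas 2.3.3 and matplotlib 3.10.9 made the tables and plots. The fit was tested on simulated data. Groups came from the treatment labels.

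The members and the 41 gene lists were chosen with earlier results of these data known, so lists are described by counts and medians and not tested. Named were the 16 largest rises and the falls among called genes without overlap, list members with small adjusted p or needed to describe a list, the Y-linked genes and Xist, Cd28, Ctla4 and the cytokines of the study. Other genes were chosen after their values were seen. Alternatives were other pseudocounts, filters, gene types, scalings, fits and left-out libraries. Upstream windows were RefSeq sequences of GRCm38.p6.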

Additional observations from a re-analysis of the deposited data

How the results depend on the processing

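The counts of genes past the threshold in limma moved with the fit far more than with the pseudocount. Without a filter on low values 113 genes were higher and 24 lower, on the TPM scale 30 and 1, and without a trend in the empirical Bayes step 76 and 14. The fit of all 18 libraries called 1065 higher and 1817 lower, which took the share of higher genes among calls from 88.89% to 36.95%. Sample weights, whose estimate stopped before full convergence, called 4282 higher and 5465 lower. Against N 3 alone, 2696 were higher and 3440 lower, and 4413 genes lay above and 5682 below. Leaving out each library in turn gave 0 to 3374 higher and 0 to 4209 lower genes, both highest without N 3. All LM libraries lay above all N libraries for 1605 to 4102 genes and below for 2507 to 5125 under the same omissions. Scaling by the median of ratios moved the median of all genes by 0.112 on the log2 scale and gave 61 higher and 4 lower. The cause of these changes was not tested.

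The replicate block left 0 higher and 0 lower genes. Deviations of same-numbered libraries correlated at -0.16, 0.39 and 0.29, and those of differently numbered libraries at -0.46 to 0.35. With 3 libraries per group and the unlike N 3, these values cannot show whether the numbers pair the libraries. The alternatives were run gene by gene for the 54 called genes and for 28 uncalled genes. All of these lay above or below all naive libraries, so leaving out libraries could not reverse a direction. That no direction reversed among them is therefore no measure of stability. The other genes named by their levels were not included. The 2170 and 2113 genes for which LM lay between N 3 and the other naive libraries take opposite directions without N 3 and against N 3 alone. Depth per gene is unknown, since the tables give no counts.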

Other observations

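At least 1 log2 unit separated LM from both references, the mean of N 1 and N 2 and N 3, upward for 238 genes and downward for 50 of the 11582 tested. LM lay nearer to N 3 than to the mean of N 1 and N 2 for 69% of the genes. These are descriptions of 6 libraries, without a test.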
